A study of Arabidopsis thaliana with 9 samples.

Results

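Root hairs are tubular outgrowths of single epidermal cells of the root. The transcript levels of 9 genes of that pathway, of 28117 genes in the table, were followed in whole Arabidopsis thaliana seedlings. The 9 were taken by gene identifier, as known genes of the pathway and with earlier results of these data known: the basic helix-loop-helix (bHLH) factor genes RHD6, RSL2 and RSL4, the cell wall genes EXPA7, EXPA18, COBL9, LRX1 and PRP3, and the homeodomain factor gene GL2. All 9 were found. The study set wild type (WT) beside a triple mutant, arid2-/-arid3-/-arid4-/- (arid2/3/4), and a double mutant, epcr1-/-epcr2-/- (epcr1/2). Each genotype had 3 libraries. The series title places the mutated genes in the PEAT complexes, which join proteins with PWWP, EPCR, ARID and TRB names and act on histone acetylation. All 3 genotypes were seedlings of 10 days, grown on MS plates under 16 h of light and 8 h of dark at 22 °C, and RNA came from 1 g of tissue, so roots and shoots were pooled. The labels give no allele, no number of plants and no separate cultures, so a p-value measures the spread between these libraries, which may be technical.

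In the Arabidopsis root epidermis, cells in one position become hair cells and their neighbours stay hairless. In the hairless cells a complex of MYB, bHLH and WD40 proteins turns on GL2, which keeps hair genes off; GL2 also acts in leaf hairs (trichomes) of the shoot. In hair cells RHD6 starts hair formation and acts through RSL2 and RSL4, which set hair growth, and these bHLH factors switch on genes for the wall of the growing tip. Several of those wall genes carry a short promoter sequence known as the root hair element (RHE).

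The RHE is shown first, because part of the wall genes share it by sequence. Its published consensus was searched on both strands of the 300 bases before the annotated start in TAIR10.1, a window that ends where the transcript begins. The 4 members with a match, all of them wall genes, are printed below 5′ to 3′ in the direction of the element, with the match in capitals and 20 bases on each side.
EXPA7: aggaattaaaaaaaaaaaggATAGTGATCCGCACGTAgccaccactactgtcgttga
EXPA18: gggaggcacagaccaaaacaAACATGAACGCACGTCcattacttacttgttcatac
LRX1: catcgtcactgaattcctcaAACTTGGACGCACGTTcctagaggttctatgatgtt
PRP3: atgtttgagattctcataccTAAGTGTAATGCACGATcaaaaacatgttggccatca
These windows lie at chr1:4276407-4276463 (plus strand) for EXPA7, chr1:23331503-23331558 (plus) for EXPA18, chr1:4069879-4069934 (minus) for LRX1 and chr3:23182535-23182591 (minus) for PRP3. The element read in the direction of the gene in EXPA7 and EXPA18, from 62 to 78 and from 25 to 40 bases before the start, and against it in LRX1 and PRP3, from 78 to 93 and from 151 to 167 bases before the start. A match was present in 4 of 9 members (44.4%) and in 251 of 27443 promoters of protein-coding nuclear genes (0.915%). The consensus is a published element of root hair genes, so matches in such genes were in part known beforehand. The shares are a description and not an independent result. No match was found in these windows of RHD6, RSL2, RSL4, COBL9 or GL2.

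The core of the element, GCACG, was present on either strand in 6 of 9 members (66.7%) and in 9.15% of all promoters. It lies inside each of the 4 printed matches, and RSL4 and COBL9 held it outside any RHE. The G-box CACGTG, a motif that bHLH factors are known to bind, was in none of the 9 windows and in 7.09% of all promoters. TAAATG, the core of the L1 box of homeodomain factors of the GL2 class, was in EXPA18 and RSL2 (22.2%) and in 30.2% of all promoters. The 300 bases before EXPA7, chr1:4276205-4276504 on the plus strand, are shown whole because they hold 3 copies of the GCACG core, of which the capitals mark only the full element.
EXPA7 promoter: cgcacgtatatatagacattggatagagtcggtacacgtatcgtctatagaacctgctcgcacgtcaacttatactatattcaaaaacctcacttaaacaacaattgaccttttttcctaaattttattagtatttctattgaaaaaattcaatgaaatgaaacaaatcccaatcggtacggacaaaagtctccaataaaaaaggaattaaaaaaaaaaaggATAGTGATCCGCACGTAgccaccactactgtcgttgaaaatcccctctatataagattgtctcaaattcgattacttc

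Among 18 other wall genes of root hairs, 5 held an RHE (27.8%), and their matches are printed for comparison with those of the members.
LRX2: ATATTGATAAGCACGTC
PRP1: ATAGTGTTATGCACGAT
RHS13: ATAATGCGACTCACGTC
RHS18: TCCATGAACGCACGTT
MRH6: TTCATGGCAAGCACGTT
These matches lie at chr1:23112676-23112692 (minus strand) for LRX2, chr1:20504772-20504788 (minus) for PRP1, chr4:993233-993249 (minus) for RHS13, chr5:7426218-7426233 (plus) for RHS18 and chr2:1132047-1132063 (plus) for MRH6. No match was found in 11 epidermal patterning genes, 6 other root hair bHLH genes, 17 root hair growth genes or 22 relatives of the members from the same families. A match is a description of letters, not of a bound site. The share among the 18 wall genes has the same limit as that of the members.

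**Figure D1:**
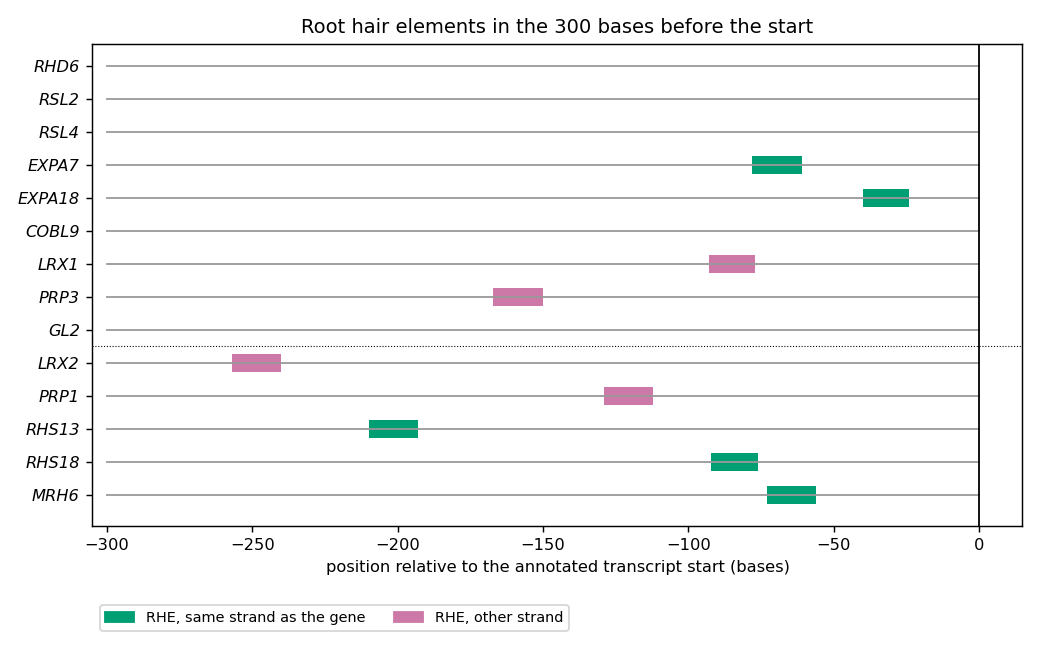
Positions of root hair elements in the 300 bases before the annotated transcript start, in bases relative to the start, for the 9 members (above the dotted line) and for the 5 other wall genes with a match. Boxes mark the element and its strand; 4 members, all wall genes, have one, from 25 to 167 bases before the start.

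The table held 1 value per gene and library, read here as FPKM, in which fragments are scaled to the length of the transcript and to the size of the library. Replicates 1 and 2 had an estimated depth of 23.1 to 32.6 M fragments, and replicate 3 of each genotype had 56.0 to 65.5 M. Libraries 1 and 2 of a genotype were close to each other over all tested genes (r of 0.994 to 0.995) and library 3 stood apart from both (r of 0.835 to 0.883), so the members' values are also given within replicate numbers. The mutated genes checked most labels. AT2G17410, an ARID-domain gene taken as ARID2, was at 2.06 to 2.15 FPKM in arid2/3/4 against 20.1 to 22.5 in WT. AT1G20910, taken as ARID3, was at 3.6 to 5.62 FPKM in arid2/3/4 against 8.22 to 8.68 in WT. AT1G76510, taken as ARID4, was at 3.13 to 4.28 FPKM against 10.9 to 13.6. In epcr1/2 these genes also lay below WT without overlap, at 18.1 to 19.6, 6.85 to 7 and 7.9 to 8.73 FPKM. The arid2/3/4 libraries were the lowest for each of them. AT4G32620, taken as EPCR1, was at 0.344 to 1.08 FPKM in epcr1/2 against 10.5 to 16.4 in WT. AT5G04670, taken as EPCR2, had a median of 10.4 FPKM in epcr1/2, inside its WT range of 6.99 to 11.8, so its transcript level does not mark the mutant. Genes of photosynthesis such as RCA, at 4140 ± 689 FPKM in WT (mean ± SD, n = 3), and root genes such as CASP1, at 28.4 ± 3.62 FPKM, were both present, as the label of whole seedlings states.

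All 9 genes were lower in both mutants than in WT, in every library. In arid2/3/4 the mean of a member was between 18.5% (RSL2) and 39.8% (COBL9) of its WT mean. In epcr1/2 it was between 7.94% (PRP3) and 26.0% (GL2) for the 8 members with no library listed at 0. In bulk RNA, fewer hair cells and less RNA of these genes per cell cannot be told apart. Differences below are on the log2(FPKM + 1) scale, which understates the change of low genes, and come from 1 limma fit across 21168 genes. A gene was called at a Benjamini-Hochberg adjusted p under 0.05 over all genes tested.

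RHD6, the bHLH factor at the head of the hair pathway (AT1G66470, chr1:24795214-24797015, plus strand, 5 exons), was at 1.43, 2.08 and 2.2 FPKM in WT replicates 1, 2 and 3. It was at 0.56, 0.487 and 0.501 FPKM in arid2/3/4 and at 0.443, 0.279 and 0.5 in epcr1/2. All 6 mutant libraries lay below the lowest WT library, and those of the mutants overlapped each other. RHD6 fell by 0.93 ± 0.14 in arid2/3/4 (SE, limma adjusted p = 0.00363) and by 1.04 ± 0.14 in epcr1/2 (limma adjusted p = 0.00146).

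RSL4, a bHLH factor whose level sets hair length (AT1G27740, chr1:9654475-9656089, plus strand, 4 exons), was at 1.73, 1.46 and 1.16 FPKM in WT. It was at 0.385, 0.341 and 0.232 FPKM in arid2/3/4, and at 0.0902 and 0.198 in epcr1/2 replicates 1 and 3, while epcr1/2 replicate 2 was listed at 0. The 3 genotypes did not overlap. RSL4 fell by 0.89 ± 0.13 in arid2/3/4 (limma adjusted p = 0.00346) and by 1.16 ± 0.13 in epcr1/2 (limma adjusted p = 0.000773). The arid2/3/4 call ended under 1 alternative, which takes the mean of replicates 1 and 2 as 1 library beside a replicate block (-0.87, limma adjusted p = 0.0587).

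RSL2, a related bHLH factor of hair growth (AT4G33880, chr4:16239363-16241169, minus strand, 5 exons), was at 0.542, 0.885 and 2.25 FPKM in WT. Its values were 0.277, 0.218 and 0.187 FPKM in arid2/3/4 and 0.174, 0.0416 and 0.116 in epcr1/2. The WT libraries spread most, with replicate 3 highest, and still the 3 genotypes did not overlap. The difference was -0.79 ± 0.25 in arid2/3/4, which did not pass (limma adjusted p = 0.059; 0.0347 with the replicate block, and 0.111 with the block and replicates 1 and 2 averaged), and RSL2 fell by 0.93 ± 0.25 in epcr1/2 (limma adjusted p = 0.0256). That last call ended without epcr1/2 replicate 1 (-0.97), replicate 2 (-0.89) or replicate 3 (-0.94), with only the groups compared (-0.93) and with replicates 1 and 2 averaged (-1.09). RSL2 and RSL4 passed the filter on low values, 0.5 FPKM in 3 libraries, only through WT, so they could hardly be tested without lying lower in the mutants. Their levels rest on few fragments: an estimated 17.0, 24.0 and 152.3 for RSL2 in WT, and 6.0, 1.0 and 7.9 in epcr1/2.

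The expansin genes EXPA7 and EXPA18 encode proteins that loosen the wall at the site of hair outgrowth, and both carry the RHE in the direction of the gene. EXPA7 (AT1G12560, chr1:4276505-4277969, plus strand, 3 exons) was at 7.73, 7.14 and 5.09 FPKM in WT, 3.34, 2.72 and 0.636 in arid2/3/4 and 0.729, 0.334 and 0.661 in epcr1/2. The mutants lay below WT without overlap, and replicate 3 of arid2/3/4 lay within the range of epcr1/2. EXPA7 fell by 1.35 ± 0.35 in arid2/3/4 (limma adjusted p = 0.0316) and by 2.27 ± 0.35 in epcr1/2 (limma adjusted p = 0.00277). The arid2/3/4 call ended when WT replicate 1 (-1.24) or replicate 2 (-1.29) was left out, when arid2/3/4 replicate 2 was (-1.51), when replicate 1 (-1.35) or 2 (-1.35) of epcr1/2 was, and under 5 other settings, among them a pseudocount of 0.1 (-1.79) and median centring (-1.27).

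EXPA18 (AT1G62980, chr1:23331563-23333246, plus strand, 3 exons) followed EXPA7 closely. It was at 8.13, 7.21 and 6.58 FPKM in WT, 4.01, 2.28 and 0.893 in arid2/3/4 and 0.526, 0.855 and 0.52 in epcr1/2. The 3 genotypes did not overlap, though the lowest arid2/3/4 library and the highest epcr1/2 library were close. EXPA18 fell by 1.4 ± 0.32 in arid2/3/4 (limma adjusted p = 0.0184) and by 2.35 ± 0.32 in epcr1/2 (limma adjusted p = 0.00149). In arid2/3/4 the call ended without replicate 1 (-1.33) or 2 (-1.4) of WT or replicate 2 (-1.43) of arid2/3/4, with only the groups compared (-1.4) and with replicates 1 and 2 averaged (-1.53).

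COBL9, annotated as SHV2, encodes a membrane-anchored protein of the COBRA family that hair tip growth needs (AT5G49270, chr5:19971884-19974530, minus strand, 2 exons). It was at 1.84, 1.76 and 2.98 FPKM in WT, 0.834, 0.829 and 0.959 in arid2/3/4 and 0.348, 0.18 and 0.657 in epcr1/2. The 3 genotypes did not overlap, and the arid2/3/4 libraries were close to each other. COBL9 fell by 0.75 ± 0.19 in arid2/3/4 (limma adjusted p = 0.0254) and by 1.19 ± 0.19 in epcr1/2 (limma adjusted p = 0.00283). The arid2/3/4 call ended without WT replicate 1 (-0.82), without replicate 1 (-0.73) or 2 (-0.73) of arid2/3/4, with a pseudocount of 0.1 (-1.20) and with replicates 1 and 2 averaged (-0.82).

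LRX1, a wall protein that joins leucine-rich repeats to an extensin (AT1G12040, chr1:4069992-4072681, plus strand, 1 exon), was at 4.05, 5.3 and 18 FPKM in WT. It was at 1.68, 1.82 and 2.18 FPKM in arid2/3/4 and at 0.505, 0.387 and 2.09 in epcr1/2. WT replicate 3 was far above the other WT libraries, and replicate 3 was also the highest of each mutant. The difference in arid2/3/4 was -1.55 ± 0.51, which did not pass (limma adjusted p = 0.0648; 0.00826 with the replicate block, and 0.0599 with the block and replicates 1 and 2 averaged). In epcr1/2 LRX1 fell by 2.18 ± 0.51 (limma adjusted p = 0.0144), a call that ended without epcr1/2 replicate 1 (-2.03) or replicate 2 (-1.97).

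PRP3, a proline-rich structural protein of the hair wall (AT3G62680, chr3:23182722-23184042, plus strand, 2 exons), had the highest level of the 9 in WT, at 16.6, 23.5 and 58 FPKM. It was at 10.4, 10.3 and 11 FPKM in arid2/3/4, where the libraries were nearly equal, and at 1.6, 0.589 and 5.6 in epcr1/2. The 3 genotypes did not overlap, and WT replicate 3 was again the highest. The difference in arid2/3/4 was -1.35 ± 0.57, which did not pass (limma adjusted p = 0.135; 0.0296 with the replicate block, and 0.0876 with the block and replicates 1 and 2 averaged). In epcr1/2 PRP3 fell by 3.29 ± 0.57 (limma adjusted p = 0.00445), the largest difference of any member on this scale.

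GL2, the homeodomain factor of hairless root cells and of trichomes (AT1G79840, chr1:30036956-30041440, plus strand, 6 annotated transcripts), was at 6.56, 6.75 and 8.31 FPKM in WT. It was at 2.35, 1.95 and 0.958 FPKM in arid2/3/4 and at 1.74, 2.07 and 1.81 in epcr1/2. Both mutants lay below WT without overlap, and they overlapped each other. GL2 fell by 1.60 ± 0.21 in arid2/3/4 (limma adjusted p = 0.00214) and by 1.51 ± 0.21 in epcr1/2 (limma adjusted p = 0.00176). The gene that holds hair genes off and the hair genes themselves were thus lower in the same libraries.

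**Figure D2:**
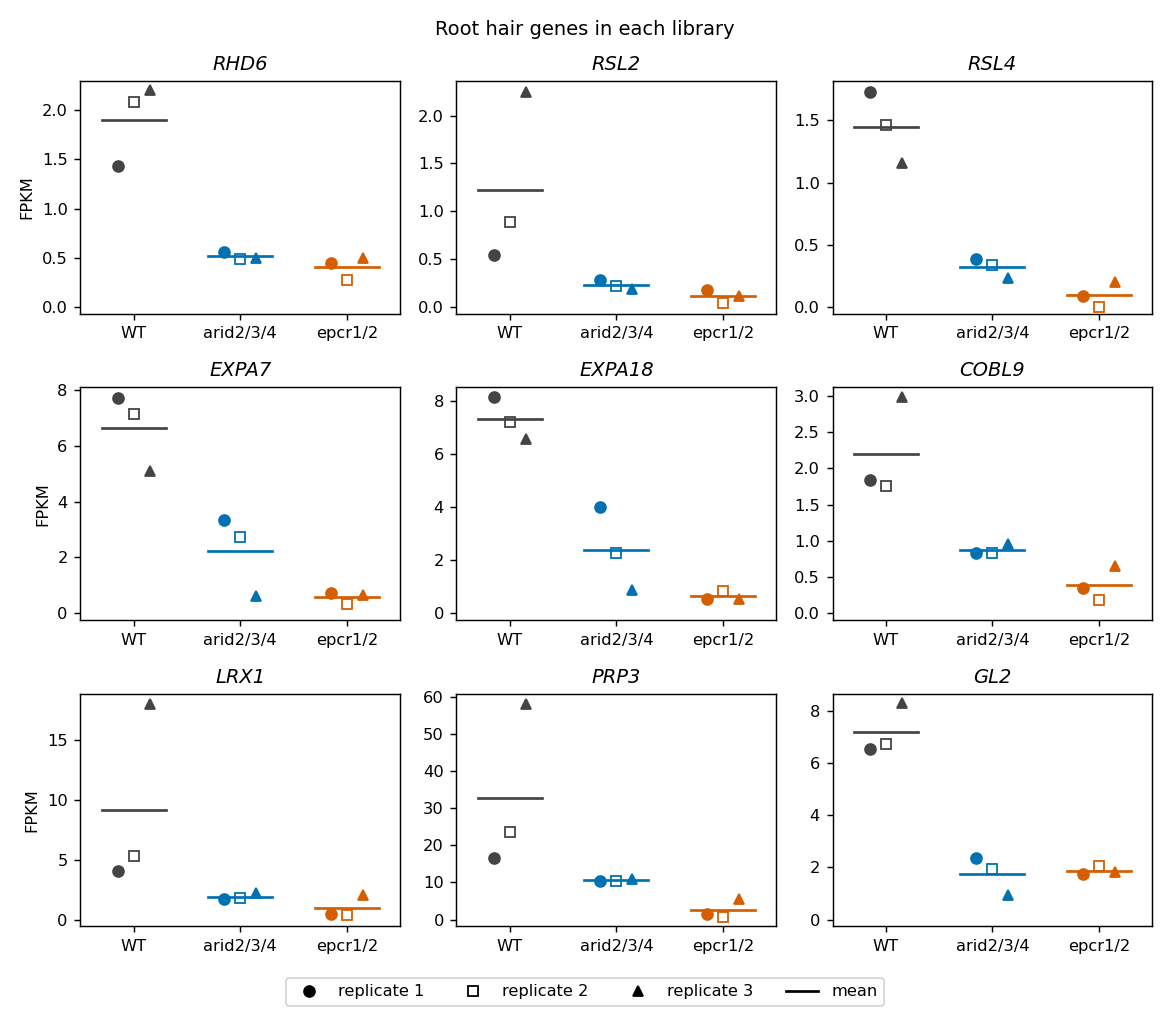
FPKM of each of the 9 genes in every library by genotype, with a line at the genotype mean and a symbol for each replicate number; each panel has its own linear axis from 0, and RSL4 in epcr1/2 replicate 2 is plotted as listed, at 0. All 6 mutant libraries sit below all 3 WT libraries in every panel, and WT replicate 3 is the highest library for LRX1 (18 FPKM) and PRP3 (58 FPKM).

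Counted together, 6 of the 9 members fell in arid2/3/4 and 9 of 9 in epcr1/2, and none rose. Over all genes tested, 12.0% fell in arid2/3/4 and 17.8% in epcr1/2, while 8.78% and 10.8% rose. Of the 7 members whose passing of the filter did not rest on WT alone, 5 fell in arid2/3/4 and 7 in epcr1/2. With the replicate block all 9 were called lower in arid2/3/4, as were 5439 of all 21168 genes tested. With the block and replicates 1 and 2 averaged 2 were (RHD6 and GL2), against 1230 of all genes. Without arid2/3/4 replicate 2 only 3 were, against 1243 of all genes. The median difference of the members was -1.35 in arid2/3/4 and -1.51 in epcr1/2, against -0.05 and -0.12 for all genes tested. Every library of a mutant was below every WT library for 9 of 9 members in both mutants, which held for 20.7% of all genes tested in arid2/3/4 and 28.1% in epcr1/2. For RSL2 and RSL4, which passed the filter only through WT, the filter fixed this order, so the count rests on the other 7. The medians of the members include RSL2 and RSL4. Both comparisons use the same WT libraries. A gene fell in both mutants in 8.33% of all genes tested.

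Within each replicate number the members were also below WT. In replicate 1 the members were at 22.3 to 62.8% of WT in arid2/3/4 and 5.23 to 32.0% in epcr1/2. In replicate 2 they were at 23.3 to 47.1% in arid2/3/4 and 2.51 to 30.6% in epcr1/2, with RSL4 listed at 0. In replicate 3 they were at 8.3 to 32.2% in arid2/3/4 and 5.15 to 22.8% in epcr1/2. All 9 members were below WT in each of these pairs. The median member of arid2/3/4 stood at 43.2%, 31.6% and 13.6% of WT in replicates 1, 2 and 3. Replicate 3, which stood apart and had the highest estimated depth, thus gave the largest reduction in that mutant.

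**Figure D3:**
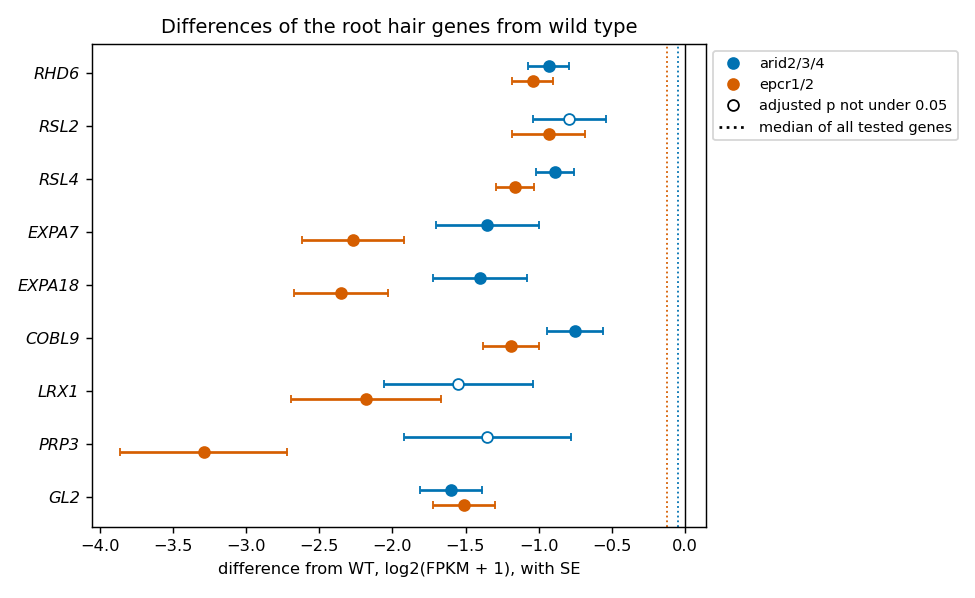
Difference of each gene from WT on the log2(FPKM + 1) scale with its SE, for arid2/3/4 and epcr1/2; open symbols did not pass (adjusted p not under 0.05) and dotted lines mark the medians of all tested genes (-0.05 and -0.12). All differences lie below 0, from -0.75 (COBL9 in arid2/3/4) to -3.29 (PRP3 in epcr1/2).

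The levels were lower in epcr1/2 than in arid2/3/4 for 8 of 9 members by their means, the exception being GL2. Within replicates 1, 2 and 3 the epcr1/2 value was the lower one in 9, 8 and 7 of 9 members, with EXPA7 and GL2 the exceptions in replicate 3 and GL2 in replicate 2. In 5 members, EXPA18, RSL2, RSL4, COBL9 and PRP3, every epcr1/2 library was below every arid2/3/4 library, an order found in 17.7% of all genes tested. None of the 9 passed the limma test between the mutants, while 10.5% of all genes did. An unadjusted limma p under 0.05 was reached by 4: EXPA7, EXPA18, COBL9 and PRP3. The share of all genes tested at that threshold was not counted, and it is at least the 10.5% that passed after adjustment. PRP3 differed most, by 1.94 ± 0.57 (limma adjusted p = 0.0709), followed by EXPA18 at 0.95 ± 0.32 (0.104) and EXPA7 at 0.93 ± 0.35 (0.147). With the replicate block PRP3 (limma adjusted p = 0.0132), EXPA18 (0.0369) and COBL9 (0.0418) passed, as higher in arid2/3/4. Over all genes tested, 6039 of 21168 passed with the block, 3554 of them as higher in arid2/3/4. With the block and replicates 1 and 2 averaged, none of the 9 members passed (limma adjusted p = 0.123, 0.202 and 0.27 for these 3), and 9 of all genes did. RHD6 (0.11 ± 0.14), RSL2 (0.15 ± 0.25) and GL2 (-0.09 ± 0.21) were within 1 SE of no difference, and GL2 turned to 0.13 without arid2/3/4 replicate 3.

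Across the 9 libraries the members moved together, since the genotypes separate all of them. Pairwise Pearson r on log2(FPKM + 1) was 0.69 to 0.98 over 36 pairs, with a median of 0.85, and is a description only because the libraries share genotype, replicate number and depth. EXPA7 and EXPA18 were the closest pair (0.98), then COBL9 and LRX1 (0.97), and PRP3 and GL2 the least alike (0.69).

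Other wall genes of root hairs were lower in the same mutants. Of 18 such genes 11 fell, none rose and 7 did not pass in arid2/3/4, and 14 fell, none rose and 4 did not pass in epcr1/2. Their median difference was -1.33 and -2.32. RHS13, a proline-rich wall protein gene with an RHE, went from 23.2 ± 3.43 FPKM in WT (mean ± SD, n = 3) to 5.94 ± 3.59 in arid2/3/4 and 1.28 ± 0.296 in epcr1/2. AGP3, an arabinogalactan protein gene, went from 32.2 ± 6.98 to 9.85 ± 3.3 and 2.92 ± 0.881 FPKM. PRP1, a relative of PRP3 with an RHE, went from 9.52 ± 2.45 to 2.6 ± 0.668 and 0.367 ± 0.229 FPKM. RHS19, a peroxidase gene, went from 16.5 ± 5.92 to 4 ± 1.58 and 1.29 ± 0.429 FPKM. These 4 passed in both mutants; in arid2/3/4 the call of RHS13 (-1.98 ± 0.43, limma adjusted p = 0.015) ended without WT replicate 1 or WT replicate 2 (-1.94 to -1.9), and those of AGP3 (-1.87) and RHS19 (-2.1) with replicates 1 and 2 averaged. The cellulose synthase-like genes CSLD2 (0.54 ± 0.18 and -0.12 ± 0.18) and CSLD3 (0.1 ± 0.13 and 0.22 ± 0.13), which hair growth needs but which other tissues use too, did not pass in arid2/3/4 or epcr1/2. LRX2, the closest relative of LRX1 and a gene with an RHE, did not pass either (0.08 ± 0.42 and 0.34 ± 0.42). Between the mutants 3 of the 18 passed, as higher in arid2/3/4, while 10.5% of all genes tested passed in either direction. With the replicate block 12 of the 18 passed, against 6039 of 21168 genes tested. With the block and replicates 1 and 2 averaged, 0 of the 18 passed, against 9 of all genes.

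The patterning genes upstream of GL2 and RHD6 were mixed. Of 11, 5 fell and 1 rose in arid2/3/4 and 6 fell in epcr1/2, with 5 not passing in each; the median difference was -0.63 and -0.69. TRY, an inhibitor of the GL2-activating complex that moves between cells, went from 4.99 ± 1.19 FPKM in WT to 0.457 ± 0.0585 in arid2/3/4. It was at 0.21 and 0.264 in epcr1/2 replicates 1 and 3 and listed at 0 in replicate 2. The differences were -2.02 ± 0.17 and -2.36 ± 0.17 (limma adjusted p = 0.000361 and 0.000141). Apart from arid2/3/4 replicate 3 (0.517 FPKM), no mutant library of TRY reached 0.5 FPKM, so TRY passed the filter on low values mainly through WT. MYB23, a MYB activator of GL2, went from 4.55 ± 1.3 to 0.844 ± 0.0878 FPKM in arid2/3/4, was at 0.093 and 0.108 in epcr1/2 replicates 1 and 3 and listed at 0 in replicate 2, and passed in both. WER, the root MYB activator of GL2, fell by 1.25 ± 0.19 in arid2/3/4 and by 0.79 ± 0.19 in epcr1/2, where the call ended without WT replicate 1 and without either of epcr1/2 replicates 1 and 2 (-0.76 to -0.67). ETC3, another inhibitor of the complex, rose in arid2/3/4 from 5.7 ± 2.54 to 27.8 ± 8.71 FPKM (2.13 ± 0.33, limma adjusted p = 0.00432), a call that ended with replicates 1 and 2 averaged (1.84). ETC3 was in epcr1/2 at 10 ± 1.81 FPKM and did not pass (0.78 ± 0.33, limma adjusted p = 0.122).

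Not all bHLH genes of the pathway were lower. Of 6 others, 3 were tested: LRL1 rose in both mutants, LRL2 rose in epcr1/2 and LRL3 fell in epcr1/2. LRL1, a bHLH gene of the group that shares roles in hair growth, went from 11.3 ± 4.86 FPKM in WT to 27 ± 2.12 in arid2/3/4 and 43.8 ± 1.35 in epcr1/2 (1.25 ± 0.25 and 1.94 ± 0.25, limma adjusted p = 0.0105 and 0.00117); the arid2/3/4 call ended with replicates 1 and 2 averaged (1.07). LRL2, of the same group, went from 6.76 ± 2.83 to 53.2 ± 16.5 FPKM in epcr1/2 (2.82 ± 0.34, limma adjusted p = 0.000923), and was at 13.2 ± 4.65 FPKM in arid2/3/4 (0.89 ± 0.34, limma adjusted p = 0.103; 0.00227 with the replicate block). LRL3 had a WT level of 3.79 ± 3.11 FPKM and fell by 1.42 ± 0.39 in epcr1/2 (limma adjusted p = 0.0285); the call ended without epcr1/2 replicate 1 or replicate 2 (-1.59 to -1.34 over 4 settings). RSL1, the nearest relative of RHD6, was too low to be tested: it was at 0.452, 0.411 and 0.462 FPKM in WT, while 2 of 3 arid2/3/4 libraries and 1 of 3 epcr1/2 libraries were listed at 0 and the highest of the others was at 0.0844. The bHLH genes AT2G14760 and AT5G43175 were not tested either.

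Genes for the signalling and membrane traffic of growing hairs were less uniform. Of 17, 16 were tested; 4 fell and 1 rose in arid2/3/4, and 5 fell and 2 rose in epcr1/2, with medians of -0.39 and -0.42. ADF11, an actin-depolymerizing factor, went from 10.5 ± 1.74 FPKM in WT to 3.14 ± 0.852 in arid2/3/4 and 0.694 ± 0.179 in epcr1/2. ADF8, its relative, went from 5.61 ± 1.41 to 1.54 ± 0.469 and 1.41 ± 0.0502 FPKM. COW1, a phosphatidylinositol transfer protein of the hair tip, went from 4.6 ± 0.484 to 1.37 ± 0.738 and 0.385 ± 0.0923 FPKM. These 3 passed in both mutants, and in arid2/3/4 the call of COW1 ended with replicates 1 and 2 averaged (-1.42). PIP5K3 is also among the genes that fell in both mutants. It passed the filter on low values only through WT, so it could hardly be tested without lying lower in the mutants. Its arid2/3/4 call ended under 8 alternatives (-1.23 to -0.39). OXI1, a kinase gene of the response to reactive oxygen, was at 1.25 ± 0.261 FPKM in WT. It rose in arid2/3/4 to 8.29 ± 4.16 (1.92 ± 0.35, limma adjusted p = 0.00782) and in epcr1/2 to 3.89 ± 0.0781 (1.12 ± 0.35, limma adjusted p = 0.0449). The arid2/3/4 call of OXI1 ended with replicates 1 and 2 averaged (1.72). The epcr1/2 call of OXI1 ended under 9 of 22 alternatives, among them leaving out any WT or any epcr1/2 replicate or arid2/3/4 replicate 2 (1.05 to 1.21 over the 9). The NADPH oxidase gene RBOHC (-0.37 ± 0.29 and -0.84 ± 0.29) and the receptor kinase gene FER (-0.06 ± 0.23 and 0.12 ± 0.23) did not pass in either mutant.

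Relatives from the members' families moved both ways. Of 22, 21 were tested; 6 fell and 1 rose in arid2/3/4 and 5 fell and 4 rose in epcr1/2, with medians of -0.58 and -0.44. EXPA8, an expansin gene not tied to hairs, went from 89.8 ± 32.5 FPKM in WT to 16 ± 21.6 in arid2/3/4 and 4.04 ± 4.29 in epcr1/2 (-4.44 ± 0.92, limma adjusted p = 0.00914). Its arid2/3/4 call (-3.21 ± 0.92, limma adjusted p = 0.0424) ended under 11 of 22 alternatives, among them leaving out any WT replicate, or replicate 1 or 2 of either mutant (-3.43 to -2.6 over the 11). EXPA1 fell from 239 ± 47.8 to 87.2 ± 28.9 and 82.8 ± 38.3 FPKM; the arid2/3/4 call ended when any 1 WT library, or replicate 1 or 2 of arid2/3/4, was left out (-1.56 to -1.32). PRP2 fell in arid2/3/4 (-2.58 ± 0.54, limma adjusted p = 0.0139), a call that ended without arid2/3/4 replicate 1 or replicate 2 (-2.4 to -2.32), and its difference in epcr1/2 was -1.6 ± 0.54 (limma adjusted p = 0.0609; 0.000547 with the replicate block). ATML1, a homeodomain gene of the shoot epidermis and of the GL2 class, fell in epcr1/2 (-1.57 ± 0.49, limma adjusted p = 0.0462). That call ended under 8 alternatives, among them leaving out any WT replicate, or replicate 1 or 2 of either mutant (-1.76 to -1.24). In the COBRA family COBL1 (1.23 ± 0.21) and COBL4 (1.44 ± 0.23) rose in epcr1/2, where COBL9 fell. COBL2 rose in arid2/3/4 (0.82 ± 0.22, limma adjusted p = 0.0361), a call that ended under 8 alternatives (0.71 to 0.89). COBL2 rose in epcr1/2 too, where the call ended under 5 alternatives (0.69 to 0.82). With the replicate block, 13 relatives fell and 3 rose in arid2/3/4, and 11 fell and 6 rose in epcr1/2. Of all 21168 genes tested, 5439 fell and 4106 rose in arid2/3/4 with the block. In epcr1/2, 6744 fell and 4088 rose.

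**Figure D4:**
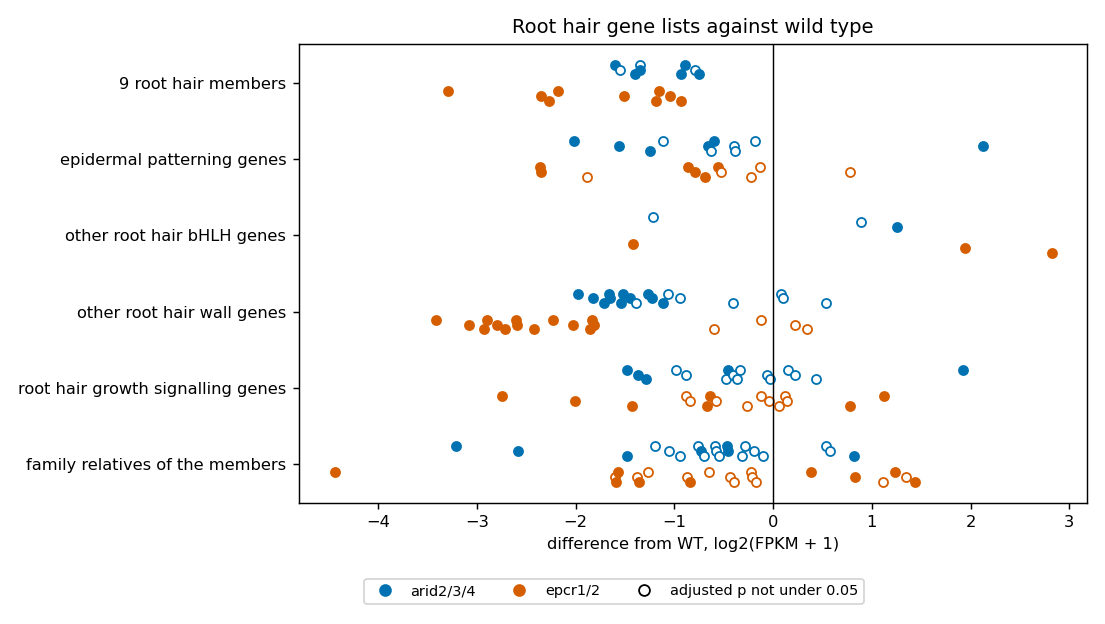
Difference from WT on the log2(FPKM + 1) scale of each tested gene of 6 lists in arid2/3/4 and epcr1/2; open points did not pass (adjusted p not under 0.05). The members and most other wall genes lie left of 0, while the bHLH genes LRL1 and LRL2 reach 1.94 and 2.82 in epcr1/2.

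Markers of other tissues were measured in the same libraries, because the share of each tissue in a whole seedling can differ between genotypes. The summed level of the 9 members was at 25.1 to 34.2% of its WT mean in arid2/3/4 and 6.78 to 17.4% in epcr1/2, with WT libraries from 69.7 to 150%. By its means PRP3 was the largest part of this sum in each genotype, at 32.7 ± 22.2 FPKM in WT, 10.6 ± 0.34 in arid2/3/4 and 2.6 ± 2.65 in epcr1/2. The sum of 8 endodermis markers, genes of the root layer that forms the Casparian strip, was at 34.0 to 57.2% in arid2/3/4 and 21.7 to 50.1% in epcr1/2. Of the 7 tested, 4 fell in arid2/3/4 and 5 in epcr1/2. CASP1, which builds the strip, went from 28.4 ± 3.62 FPKM in WT to 5.77 ± 1.21 and 3.04 ± 0.414, and CASP2 and CASP4 fell in both mutants too. SCR (-0.05 ± 0.45 and -0.27 ± 0.45) and MYB36 (-0.15 ± 0.4 and -0.24 ± 0.4), which mark the same layer, did not pass. CASP5 was the only endodermis marker too low to be tested.

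Other root tissues were described in the same way. The sum of 6 root tip and root cap markers was at 43.3 to 69.2% of the WT mean in arid2/3/4 and at 105 to 107% in epcr1/2, where WOX5 made up most of it. Without WOX5, a step added after its values were seen, the sum of the other 5 was at 24.5 to 47.6% in arid2/3/4 and 21.3 to 47.5% in epcr1/2. Among these, PLT1 was at 0.714 ± 0.362 FPKM in WT, 0.139 ± 0.091 in arid2/3/4 and 0.085 ± 0.0698 in epcr1/2, and PLT2 at 0.55 ± 0.258, 0.252 ± 0.0978 and 0.243 ± 0.0605; both, regulators of the root tip, were too low to be tested. Of the 4 tested of 6, 1 fell in arid2/3/4, and 2 fell and 1 rose in epcr1/2. WOX5, the marker of the root organizer, rose in epcr1/2 from 1.62 ± 0.745 to 4.97 ± 0.595 FPKM (1.22 ± 0.22, limma adjusted p = 0.00476), a call that ended with replicates 1 and 2 averaged (1.07), and was at 1.66 ± 0.361 in arid2/3/4. The root cap genes BRN1 (-0.78 ± 0.17) and BRN2 (-0.67 ± 0.15) fell in epcr1/2, BRN2 not without epcr1/2 replicate 1 or after median centring (-0.64 to -0.5 over 3 settings). The root cap gene SMB fell in arid2/3/4 (-0.72 ± 0.21, limma adjusted p = 0.0438), a call that ended under 9 alternatives, among them leaving out any WT replicate, or replicate 1 or 2 of either mutant (-0.8 to -0.56). Stele markers spanned 43.3 to 116% in arid2/3/4 and 76.2 to 140% in epcr1/2. Of 9, 1 fell in arid2/3/4 and 2 in epcr1/2: WOL, a cytokinin receptor, in both (-0.92 ± 0.17 and -0.89 ± 0.17), and SKOR, a potassium channel, in epcr1/2 (-1.21 ± 0.32), though not without epcr1/2 replicate 1 or replicate 2 (-1.22 to -1.12).

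Root transporters were at 54.9 to 85.9% of the WT mean in arid2/3/4 and 51.8 to 68.1% in epcr1/2. Of the 5 tested of 6, PHT1;1, a phosphate transporter of the root surface, fell in both mutants (-1.31 ± 0.22 and -1.73 ± 0.22), in arid2/3/4 not with replicates 1 and 2 averaged (-1.13). The nitrate transporter NRT2.1 rose in epcr1/2 (1.59 ± 0.27). Green shoot markers were at 30.7 to 65.5% in arid2/3/4 and 27.6 to 64.9% in epcr1/2. None of the 6 passed in arid2/3/4 and 1, RCA, in epcr1/2 (-1.61 ± 0.37, limma adjusted p = 0.0133), which ended without epcr1/2 replicate 1 or replicate 2 (-1.61 to -1.46 over 4 settings). With the replicate block 6 fell in arid2/3/4 and 5 in epcr1/2, against 5439 and 6744 of all 21168 genes tested. A list of 7 trichome genes, which shares TRY, MYB23 and GL3 with the patterning list and HDG11 with the relatives, was at 58.8 to 65.5% and 53.4 to 66.8%. SIM, a cell cycle inhibitor at 38.3 ± 2.56 FPKM in WT, 25.5 ± 1.45 in arid2/3/4 and 24.5 ± 1.81 in epcr1/2, made up most of this sum. Without SIM and TTG2, a step again added after the values were seen, the other 5 summed to 12.6 to 18.4 FPKM in WT. Their sum was 2.43 to 3.01 FPKM in arid2/3/4 and 0.702 to 1.14 in epcr1/2, the last being 4.68 to 7.56% of the WT mean. In both mutants 6 of the list's 7 genes fell and TTG2 rose, so this sum leaves out the only gene that went the other way. TTG2 was at 2.9 ± 0.867 FPKM in WT, 6.67 ± 0.74 in arid2/3/4 and 7.24 ± 2.35 in epcr1/2, above the sum of the 5 in both mutants. GL1, the MYB gene of trichomes, went from 2.89 ± 0.545 FPKM to 0.272 ± 0.0987 in arid2/3/4, and was at 0.049 and 0.172 in epcr1/2 replicates 1 and 3. GL1 passed the filter on low values only through WT, so it could hardly be tested without lying lower in the mutants. Replicate 2 of epcr1/2, in which RSL4, TRY, MYB23 and GL1 were all listed at 0, had the lowest estimated depth of the 9 libraries (23.1 M fragments). The rise of TTG2 (1 ± 0.24 and 1.07 ± 0.24) ended without WT replicate 1 (0.97 in epcr1/2), and in arid2/3/4 also without WT replicate 2 or arid2/3/4 replicate 1 or 2 (0.9 to 1.07 over 5 settings). The part of root mass, of root layers or of trichomes in the lower levels of the 9 genes was not tested.

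**Figure D5:**
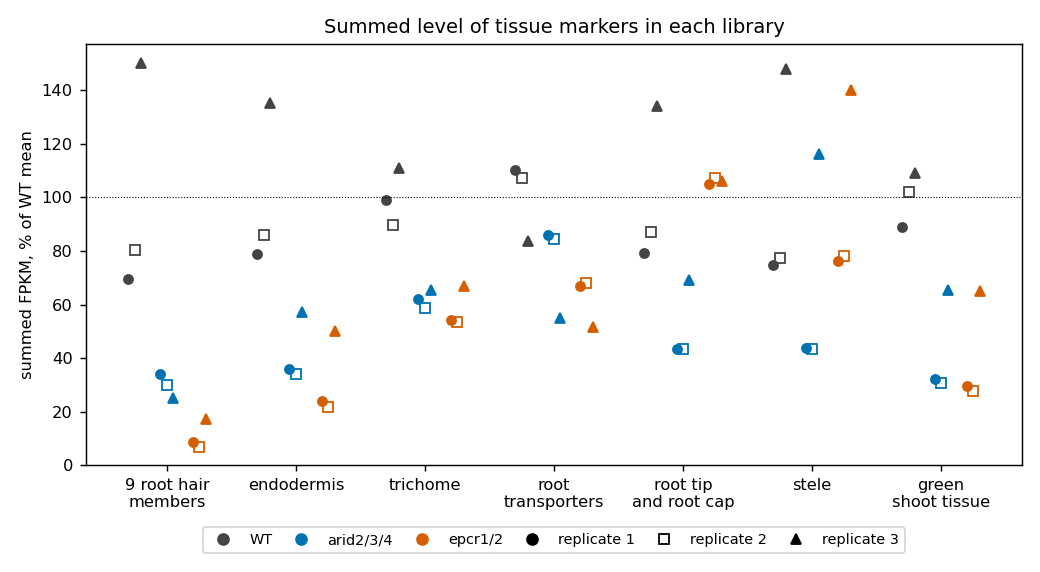
Summed FPKM of each marker list in every library as a percent of the WT mean, by genotype (colour) and replicate number (symbol); the dotted line marks 100%. The 9 members sit at 25.1 to 34.2% in arid2/3/4 and 6.78 to 17.4% in epcr1/2, and PRP3 has the highest mean among them. WOX5 makes up most of the root tip and root cap sum in epcr1/2, and SIM most of the trichome sum.

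The genes whose profile over the 9 libraries was most like the mean of the 8 members other than GL2 were AT1G73580 (r = 0.992), PER64 (0.992), AT1G49390 (0.991), AT4G22485 (0.991) and AT2G01090 (0.988). PER64, a peroxidase gene, was at 9.21, 9.44 and 16.5 FPKM in WT, 3.95, 3.22 and 3.42 in arid2/3/4 and 2.18, 1.65 and 2.83 in epcr1/2, the same order of genotypes as the wall members. AT4G22485, of the lipid-transfer protein superfamily, spanned a wider range, from 120 to 334 FPKM in WT to 1.81 to 6.47 in epcr1/2. The genes most like GL2 were AT4G22490 (r = 0.993), RVE1 (0.99), AAP4 (0.987), AT4G35810 (0.982) and PEL3 (0.981). RVE1, a homeodomain-like factor gene of the clock family, was at 13.2 to 15.6 FPKM in WT, 4.26 to 6.65 in arid2/3/4 and 4.91 to 6.09 in epcr1/2. PEL3, an acyltransferase gene named for the permeable leaf surface of its mutant, was at 50.4 to 75.5 FPKM in WT, 11.7 to 22.6 in arid2/3/4 and 14.7 to 14.8 in epcr1/2. These r values are over 9 libraries that share genotype and replicate number and carry no p. AT4G22485 and AT4G22490 have neighbours of the same family, between which reads may be split.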

How the data were processed

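The mRNA of whole seedlings was sequenced, 3 libraries for each of 3 genotypes. The authors deposited 1 table of 28117 genes by 9 libraries. They made these values with STAR 2.5.2b, Cuffdiff and the TAIR10 build, per the submitters' processing notes, and the settings are not given in the sources used here. The header names no unit, and the deposited values were read as FPKM, that is, fragments aligned by the authors and normalized to transcript length and library size; the unit was inferred from decimals, unequal column sums and the steps of the lowest values. The 278 organelle genes were all listed at 0. Names, coordinates and promoters come from RefSeq's TAIR10.1 (27839 genes matched by locus tag), and the table carries no coordinates.

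The 21168 genes that reached 0.5 FPKM in 3 or more libraries were tested as log2(FPKM + 1) in limma 3.58.1 (R 4.3.3), with a mean per genotype, a variance trend and Benjamini-Hochberg adjustment over all tested genes, called at 0.05. Like TRY, the list genes GL3, CAP1, CASP4, BRN1, BRN2 and SKOR reached 0.5 FPKM in hardly any mutant library and passed mainly through WT. Depth was estimated from the steps of the lowest values and transcript length. In replicates 1 and 2, 95.9 to 97.5% of low values lay within 0.15 of a whole fragment. In replicate 3 only 67.5 to 71.0% did, so its depth and fragment estimates are less sure. No counting interval is given.

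Replicate numbers are shared by the genotypes. Deviations from the genotype means correlated by 0.63 to 0.84 between libraries of the same number, which met the limit of 0.1 for a block, but numbers 1 and 2 correlated as much with each other (0.66 to 0.76) and number 3 with them by -0.82 to -0.68. The block therefore mainly takes up the shift of replicate 3.

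The members, 11 lists (117 entries; 1 dropped, because the annotation gives its identifier another name) and tests were chosen with earlier results of these data known. All members are named, and each list names up to 4 passing genes of the largest difference. Other genes named (CSLD2, CSLD3, LRX2, RSL1, RBOHC, FER, PIP5K3, CAP1, GL3, COBL1, COBL2, COBL4, SCR, MYB36, CASP5, PLT1, PLT2, SIM) were chosen after their values were seen. The 5 genes most like a profile are those of highest r. Alternatives, 22 in all, changed the pseudocount, filter, scaling, variance model, samples and batch terms.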

Additional observations from a re-analysis of the deposited data

How the results depend on the processing

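All 194 member values under the 22 alternatives stayed below 0 against WT in each mutant. The count of members called in arid2/3/4 (6 of 9) was 2 with replicates 1 and 2 averaged and a replicate block, 3 with a filter at 2 FPKM, which left 5 members to test, and 3 to 7 when 1 library was left out, the 3 without arid2/3/4 replicate 2. In epcr1/2 (9 of 9) it was 5 of the 5 left by the filter at 2 FPKM and 7 to 9 when 1 library was left out. Between the mutants (0 of 9) it was 6 with array weights and 6 without replicate 3 of every genotype, 4 with a batch term for replicate 3, 3 with the replicate block, 0 with replicates 1 and 2 averaged and the block, and 0 to 2 when 1 library was left out. The difference of GL2 between the mutants (-0.09) turned to 0.08 with array weights and to 0.12 without replicate 3 of every genotype. It was -0.25 to 0.13 when 1 library was left out, the 0.13 without arid2/3/4 replicate 3.

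Over all genes, 4399 were called in arid2/3/4, against 13934 with array weights, 13671 without replicate 3 of every genotype, 9545 with the replicate block, 10595 with the batch term, 2011 with replicates 1 and 2 averaged and 2169 to 7064 when 1 library was left out. In epcr1/2 the count was 6039, against 14648, 13755, 10832 and 11685 under the first 4 of these settings and 3708 to 7575. Between the mutants it was 2218, against 12518, 11396, 6039 and 7338, 9 with replicates 1 and 2 averaged, 1477 with only the groups compared and 834 to 3284. Libraries 1 and 2 of a genotype are so alike that they may share plants, in which case n = 3 overstates the independent samples. The cause of these shifts was not tested. The replicate block changed the calls of members that are given beside them in the text and of no other member. Of 1452 list counts, 1144 stayed within 1.5 times. Low levels limit RSL2 and RSL4 most, with an estimated 1.0 and 0.0 fragments in epcr1/2 replicate 2.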
